A study of Mus musculus with 38 samples.

Results

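The ATP-binding cassette (ABC) genes are a family of membrane pumps and related proteins named by the letters A to G. They were followed here in tumour organoids from mouse lung adenocarcinoma. Members were taken by symbol, as every gene called Abc with a letter from a to g and a number, with pseudogenes left out. This gave 49 genes of 55502 gene IDs in the 3 deposited count tables. The rule itself uses symbols and no measured value. The series holds 38 bulk RNA libraries. Each organoid line was grown from 1 tumour in Matrigel with L-WRN conditioned medium, on a mixed 129/B6 background. All lines carried p53frt and Rosa-FSF-CreERT2, which every group shares. The Cre recombinase of these lines acts after 4-hydroxytamoxifen (4-OHT).

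Both Foxa1flox and Foxa2flox were present in the double-floxed lines 1027B, 1027D and 1292B, with 5 vehicle and 5 4-OHT libraries. Only Foxa1flox was present in lines 1552A, 1552B and 1552C, with 6 and 6 libraries, and only Foxa2flox in lines 1267B and 1526C, with 4 and 4. Vehicle was ethanol, 4-OHT was given at 2 uM for 72 hours, and when RNA was collected is not stated in the labels. In a further experiment, line 1027B carried the control hairpin shScramble or the Nkx2-1 hairpin shNKX2-1, each with vehicle or 4-OHT, with 2 libraries in each of 4 groups. Repeat libraries of a line are not separate tumours, and the labels do not call the hairpin libraries separate cultures. Their p-values measure the spread between these libraries, which may be technical. No line without floxed genes was treated, so effects of 4-OHT or Cre and of gene loss cannot be told apart.

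ABC proteins use ATP to move lipids, drugs, conjugates, peptides or metal cofactors across membranes. In lung and tumour epithelium the drug pumps of the B, C and G classes are best known for multidrug resistance, and the A and G classes for moving sterols and phospholipids. Members of the E and F classes have no membrane span and act on ribosomes.

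The targeted genes checked the labels. Foxa2 read 60.5 to 188 CPM (counts scaled to a common library size) in double-floxed vehicle libraries against 2.59 to 6.17 with 4-OHT, 73.5 to 122 against 1.93 to 4.14 in Foxa2-floxed libraries, and 66.7 to 89.0 against 0.327 to 2.58 in the hairpin libraries. Foxa1 read 41.8 to 80.3 against 13.9 to 17.4 CPM in Foxa1-floxed libraries and 17.3 to 87.4 against 8.89 to 18.3 in double-floxed libraries, where the ranges overlapped, and 22.1 to 34.1 against 18.5 to 21.9 in the hairpin libraries. Nkx2-1 read 424 to 428 CPM with shScramble and 280 to 350 with shNKX2-1 in vehicle, and 359 to 408 against 181 to 207 with 4-OHT. Libraries held 18.3 to 32 M (mega) counts with both genes floxed, 18.5 to 33.2 M with 1 gene floxed and 13.6 to 16.3 M with a hairpin. Mitochondrial genes took 1.09 to 4.3% of counts, except 11.7% in shNKX2-1 4-OHT replicate 2, which also stood apart for several ABC genes. Title prefixes (17699 and 17992 for double-floxed lines and 1267B, 19659 for the other lines, 19063 for the hairpin libraries) split the libraries, so genotype and prefix cannot be told apart for Foxa1-floxed lines. The epithelial markers summed to 5256 to 18129 CPM over all double-floxed libraries, the fibroblast markers to at most 4.97 CPM in any group and the endothelial markers to at most 8.90 CPM.

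The family was dominated by a small set of members that were on in every line. Together its genes took 0.1987 to 0.3019% of a library's counts. On the length-corrected scale (RPKM, CPM per kilobase of exon), the highest medians over the 15 vehicle libraries without a hairpin belonged to Abcc3 at 51.8 (19.7 to 117) and Abcf2 at 51.7 (30.4 to 97.5). Abcc3 exports conjugated organic anions across the basolateral membrane, and Abcf2 belongs to the soluble class. Next came Abcc5 at 46.5 (13.6 to 95), a pump for cyclic nucleotides and conjugates, Abcf1 at 40.1 (28.3 to 58.1), Abce1 at 37.8 (22.7 to 67), the ribosome recycling factor, and Abcd3 at 30.3 (17 to 53), a peroxisomal fatty acid transporter. The ranges of these neighbours overlapped. Median RPKM was above 1 for 22 members, and Abca15 and Abca16 had no count in any of the 38 libraries.

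**Figure D1:**
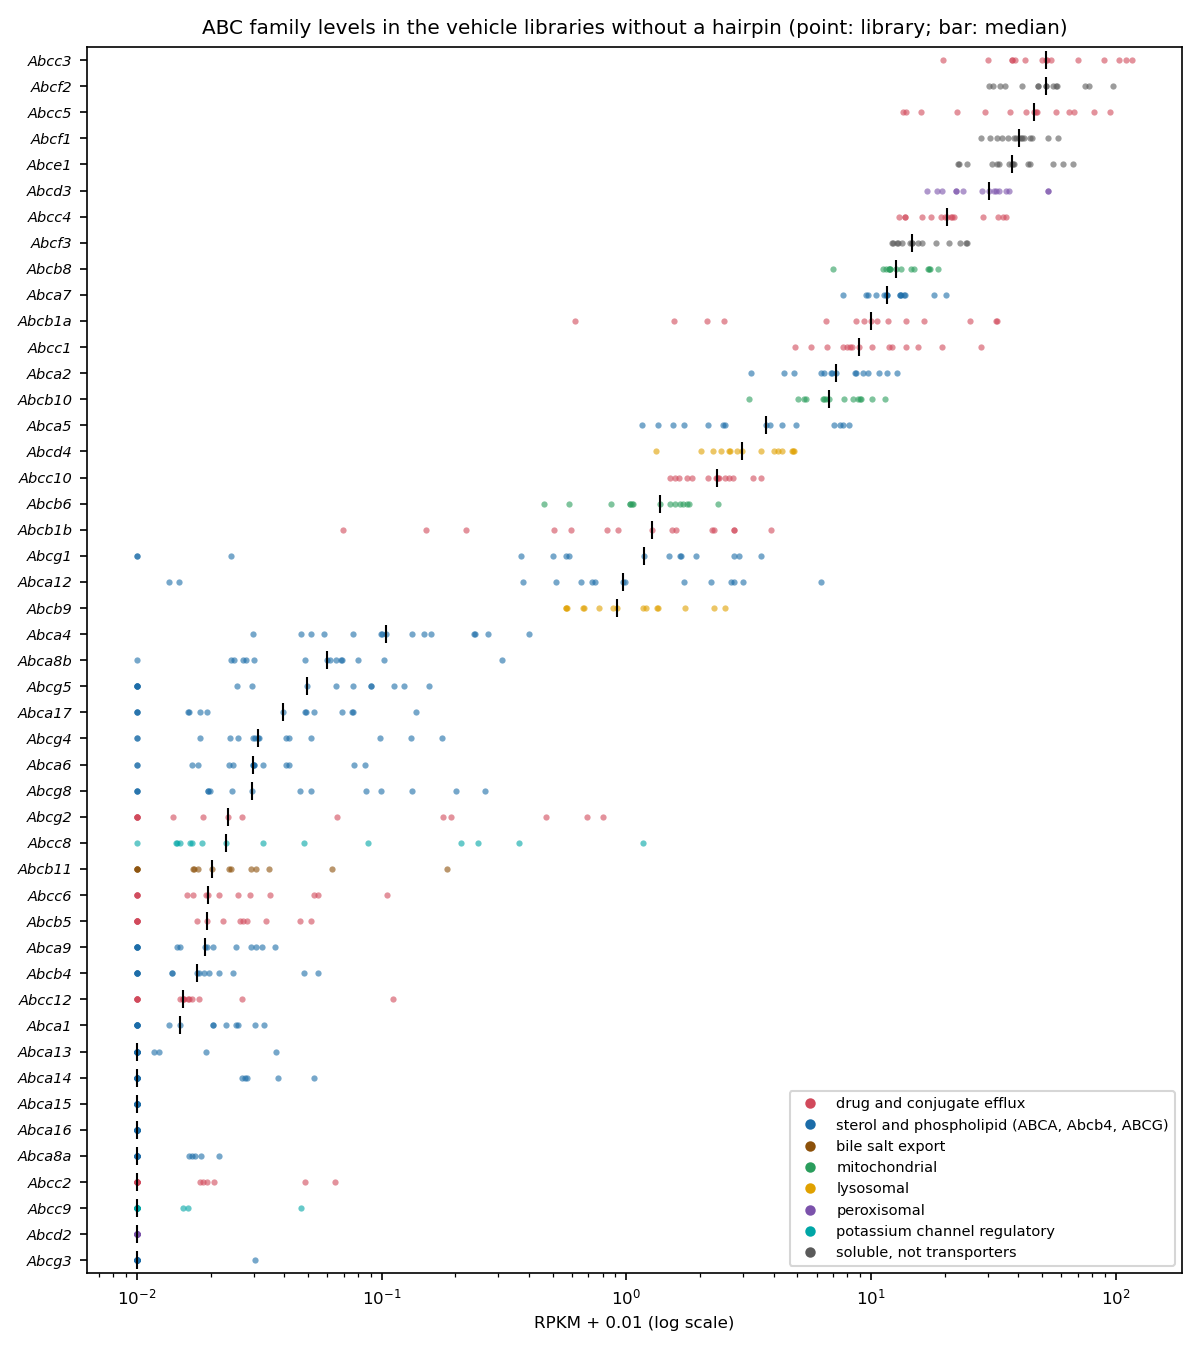
Length-corrected expression (RPKM + 0.01, log scale) of 47 of the 49 ABC genes in the 15 vehicle libraries without a hairpin. Points are libraries, bars are medians and colours are roles; Abcc3 and Abcf2 head the order, and Abcb1a, Abcb1b and Abcg1 spread far more widely than the soluble genes.

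Levels differed between the role groups. All 4 soluble genes had a median RPKM of 14.8 or more, and the 4 mitochondrial transporters of heme and iron-sulfur handling ran from 1.36 (Abcb6) to 12.7 (Abcb8). The sterol and phospholipid genes, 21 in all, had a median of 0.0197 RPKM, with Abca7 at 11.7, Abca2 at 7.19 and Abca5 at 3.71 as the highest. Of the 12 drug and conjugate pumps, Abcc3, Abcc5, Abcc4, Abcb1a and Abcc1 read 51.8, 46.5, 20.4, 9.99 and 8.93 RPKM, while the drug pump Abcg2 read 0.0135 and the canalicular conjugate pump Abcc2 read 0. The only bile salt export pump, Abcb11, read 0.0102.

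Members differed in how far the tumours spread. Taking the mean vehicle CPM of each of the 8 lines, Abca7 varied 1.73-fold, Abcc10 1.88-fold, Abcf3 1.90-fold and Abcf1 1.91-fold between the lowest and the highest line. By the same measure Abcb1b varied 22.0-fold, from 1.41 CPM in line 1267B to 31.1 in line 1292B, and Abcb1a varied 30.2-fold, from 5.91 in line 1027B to 178 in line 1267B. These genes encode the 2 mouse forms of P-glycoprotein, and their highest lines were different. The spread of Abcg1, which moves cholesterol to lipoproteins, was from 0.0516 CPM in line 1267B to 23.0 in line 1552C. Abca12, known for loading lipid granules in skin, ran from 0.0617 CPM in line 1027B to 92.5 in line 1292B. Libraries of 1 line could differ as well: line 1027B with vehicle read 0 and 10.8 CPM of Abcg1 and 0.475 and 10.1 CPM of Abcb1b under the prefixes 17699 and 17992, and its 8 hairpin libraries read at most 0.0732 CPM of Abcg1.

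One of the P-glycoprotein genes, Abcb1b, gave a difference between genotypes, and the sequences show how far their reads can be separated. Abcb1a (chr5:8660077-8748575, plus strand) and Abcb1b (chr5:8798147-8866315, plus strand) stand side by side on GRCm38, with the phospholipid transporter Abcb4 next in the row. Of the distinct 50-base windows pooled over all annotated coding sequences of a gene, 20.3% of 3779 in Abcb1a also occurred in Abcb1b. In the other direction it was 19.9% of 3869. The longest shared run was 338 bases, and its first 60 bases are shown because a read that lies within it matches both genes.
Shared coding run of Abcb1a and Abcb1b: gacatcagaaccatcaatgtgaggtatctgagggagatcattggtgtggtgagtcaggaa
How reads with several matches were counted is not stated, so part of each gene's counts may belong to the other. In line 1267B, Abcb1a held 3469 and 4211 counts with vehicle and 3941 and 4472 with 4-OHT. Abcb1b held 22 and 40, and 20 and 75, in the same libraries. The size of any shared part was not tested. The promoters differ. The RefSeq windows (build GRCm38.p6) of 250 bases before the start are shown as the regulatory sequence of the 2 genes whose values were both lower with 4-OHT in double-floxed organoids, with a match to TGTTTAC or TGTTTGC on either strand in capitals.
Abcb1a, chr5:8566841-8567090, plus strand: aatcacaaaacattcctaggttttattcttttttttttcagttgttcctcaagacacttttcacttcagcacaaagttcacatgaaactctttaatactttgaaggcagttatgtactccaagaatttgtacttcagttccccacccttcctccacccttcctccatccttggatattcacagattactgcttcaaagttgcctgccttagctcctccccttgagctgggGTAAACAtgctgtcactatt
Abcb1b, chr5:8797897-8798146, plus strand: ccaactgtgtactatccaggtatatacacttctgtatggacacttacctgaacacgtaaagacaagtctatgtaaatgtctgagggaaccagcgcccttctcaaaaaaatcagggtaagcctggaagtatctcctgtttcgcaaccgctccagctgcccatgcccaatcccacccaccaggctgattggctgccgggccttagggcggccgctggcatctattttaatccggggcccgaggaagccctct
The capitals in Abcb1a are TGTTTAC read on the other strand, ending 13 bases before the start, a core often bound by FOXA proteins. This RefSeq start lies 92986 bases upstream of the annotated gene start used for counting. Among 37 members with an entry, 4 of 44 windows held either motif (Abcb1a, Abca8a, Abcg5 and Abcg8), against 7.29% of all 32851 windows. Such a match is a description of letters, not a bound site.

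In double-floxed organoids the values of both P-glycoprotein genes were lower with 4-OHT within every line and title prefix. Whether they passed the test depended on the fit. In line 1027B, Abcb1a read 3.32 and 8.49 CPM with vehicle and 0.881 and 4.65 with 4-OHT. Line 1027D read 58.1 and 35.8 CPM of Abcb1a against 12.2 and 4.12, and line 1292B read 51.5 against 22.0. Within each line and prefix the 4-OHT value was the lower one, while the groups overlapped, both between lines and within line 1027B. The fitted log2 change of Abcb1a was -1.70 ± 0.56 (SE, adjusted p = 0.126, edgeR quasi-likelihood test with Benjamini-Hochberg adjustment over all 15198 genes tested). Abcb1b read 0.475 and 10.1 CPM in line 1027B, 17.8 and 18.1 in line 1027D and 31.1 in line 1292B with vehicle. With 4-OHT it read 0.0979 and 1.39, 2.43 and 2.24, and 5.46 CPM, again lower within each line and prefix. In line 1027B the vehicle and 4-OHT ranges overlapped, and its pair under prefix 17699 held only 9 and 2 counts. The log2 change of Abcb1b was -2.80 ± 0.78 (adjusted p = 0.0824, edgeR). These fits had the line as block, and neither gene passed. With line and prefix as the replicate block, both passed with edgeR. Both also passed with DESeq2 and with no filter on low counts. On counts summed per line, Abcb1b passed and Abcb1a did not.

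In single-floxed organoids the values did not take that direction. In Foxa1-floxed libraries, Abcb1b ran from 3.96 to 22.0 CPM with vehicle (median 12.4) and from 4.46 to 43.9 with 4-OHT (median 22.3), and Abcb1a from 11.7 to 139 (median 51.1) and from 17.7 to 140 (median 61.1). The ranges overlapped throughout, and the log2 changes were 0.66 ± 0.24 (Abcb1b, adjusted p = 0.318) and 0.49 ± 0.25 (Abcb1a, adjusted p = 0.479) by edgeR. In Foxa2-floxed libraries, Abcb1b read 1.14, 1.68, 7.30 and 6.57 CPM with vehicle against 1.02, 2.33, 8.97 and 5.44 with 4-OHT, a log2 change of 0.15 ± 0.31 (adjusted p = 0.916). Abcb1a read 179, 177, 64.1 and 76.4 CPM against 201, 139, 223 and 217, and its log2 change of 0.79 ± 0.32 did not pass (adjusted p = 0.236); leaving out line 1267B, it passed, at 1.65. In line 1526C, with 2 libraries against 2, vehicle and 4-OHT did not overlap for Abcb1a and did for Abcb1b. The share of all genes that did not overlap within this line was not counted. In the hairpin comparisons, also 2 against 2, it was 43.4 to 61.3%.

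Abcb1b was the only member whose 4-OHT effect differed between genotypes by a direct test with edgeR. Fitted on counts summed per line and treatment in 8 lines, its log2 effect was lower in double-floxed than in Foxa1-floxed lines by -3.50 ± 0.34 (95% interval -4.28 to -2.71, adjusted p = 0.00532, edgeR over 19085 genes). It was lower than in Foxa2-floxed lines by -3.05 ± 0.39 (-3.94 to -2.17, adjusted p = 0.0411). These 2 comparisons share the double-floxed lines. Of 40 members tested, 1 passed in each, where 1.54% and 0.194% of all genes passed. DESeq2 called 5 and 3 members, and 7.56% and 1.86% of all genes. The Foxa1 difference passed under every alternative tried, while the Foxa2 difference failed on leaving out any of the lines 1027B, 1027D, 1552B, 1552C, 1267B or 1526C (adjusted p 0.0767 to 0.199, values from -3.18 to -2.94). For Abcb1a the same differences were -2.22 ± 0.57 (adjusted p = 0.103) and -2.49 ± 0.64 (adjusted p = 0.266). Between the single-floxed genotypes, 0 of 40 members and 0% of genes passed with edgeR, 2 members (Abcc2 and Abcg1) had an unadjusted p under 0.05 (3.84% of genes did), and DESeq2 called 0.

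**Figure D2:**
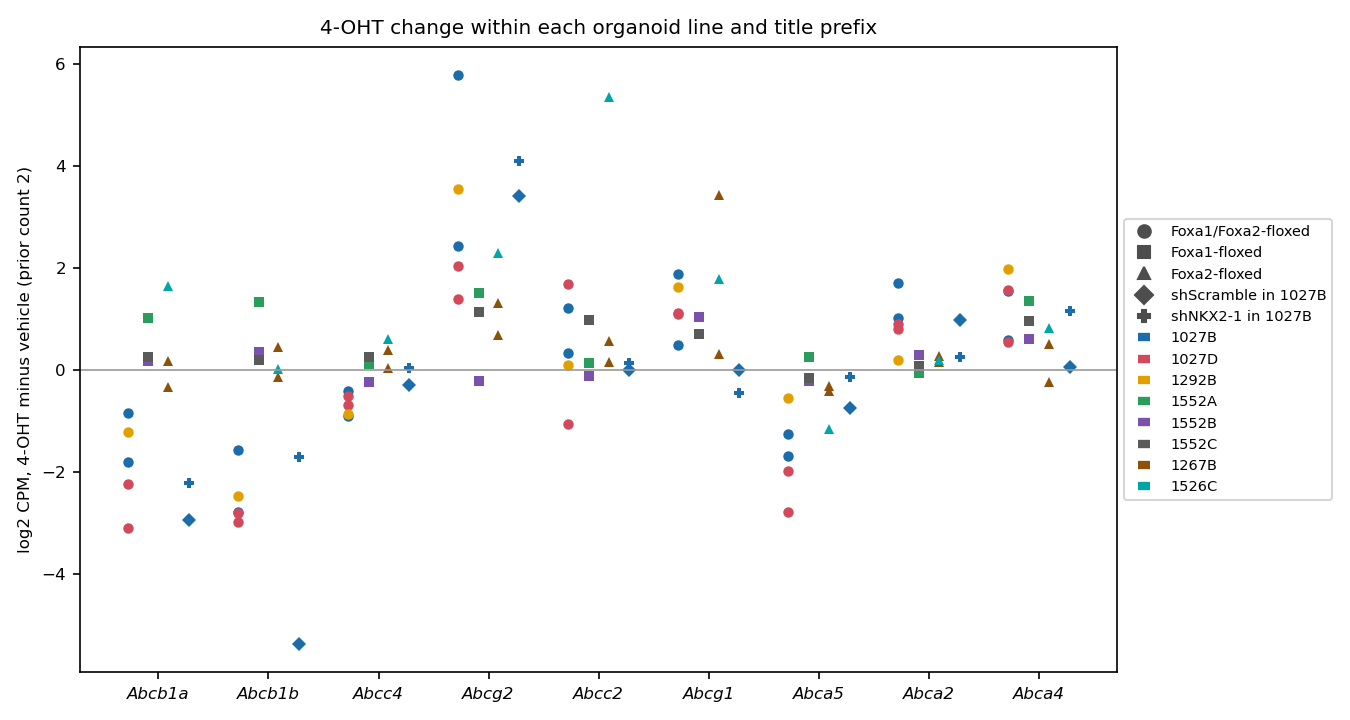
Log2 CPM with 4-OHT minus vehicle (prior count 2) within each organoid line and title prefix, for 9 ABC genes; colour is the line and shape the genotype or hairpin. All 5 double-floxed values of Abcb1b lie between -1.57 and -2.98, and the single-floxed ones between -0.14 and 1.32.

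In the hairpin experiment, Abcb1b fell with 4-OHT under shScramble. It read 5.07 and 10.5 CPM with vehicle against 0.122 and 0 with 4-OHT. This was 241 against 2 counts, a ratio of 120.7 (95% counting interval 33.1 to 1003), and the fitted log2 change of -6.77 ± 0.90 passed (adjusted p = 0.00577, edgeR over 14465 genes). Without shScramble 4-OHT replicate 2 it was -5.89 and did not pass (adjusted p = 0.0562). Line 1027B is also one of the 3 double-floxed lines, so this is no further tumour. With shNKX2-1, Abcb1b read 4.76 and 2.19 CPM against 0.947 and 0.818, groups that did not overlap, as was so for 51% of all genes with 2 libraries against 2. The log2 change was -1.96 ± 0.66 (adjusted p = 0.126). The difference between the hairpins in this effect was 4.82 ± 1.17 (2.15 to 7.49, adjusted p = 0.463), not past the threshold. Abcb1a read 5.60 and 7.29 CPM against 1.71 and 0.258 with shScramble (log2 change -2.69 ± 0.71, adjusted p = 0.0847), and 24.4 and 11.9 against 4.20 and 2.95 with shNKX2-1 (-2.34 ± 0.65, adjusted p = 0.0775).

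**Figure D3:**
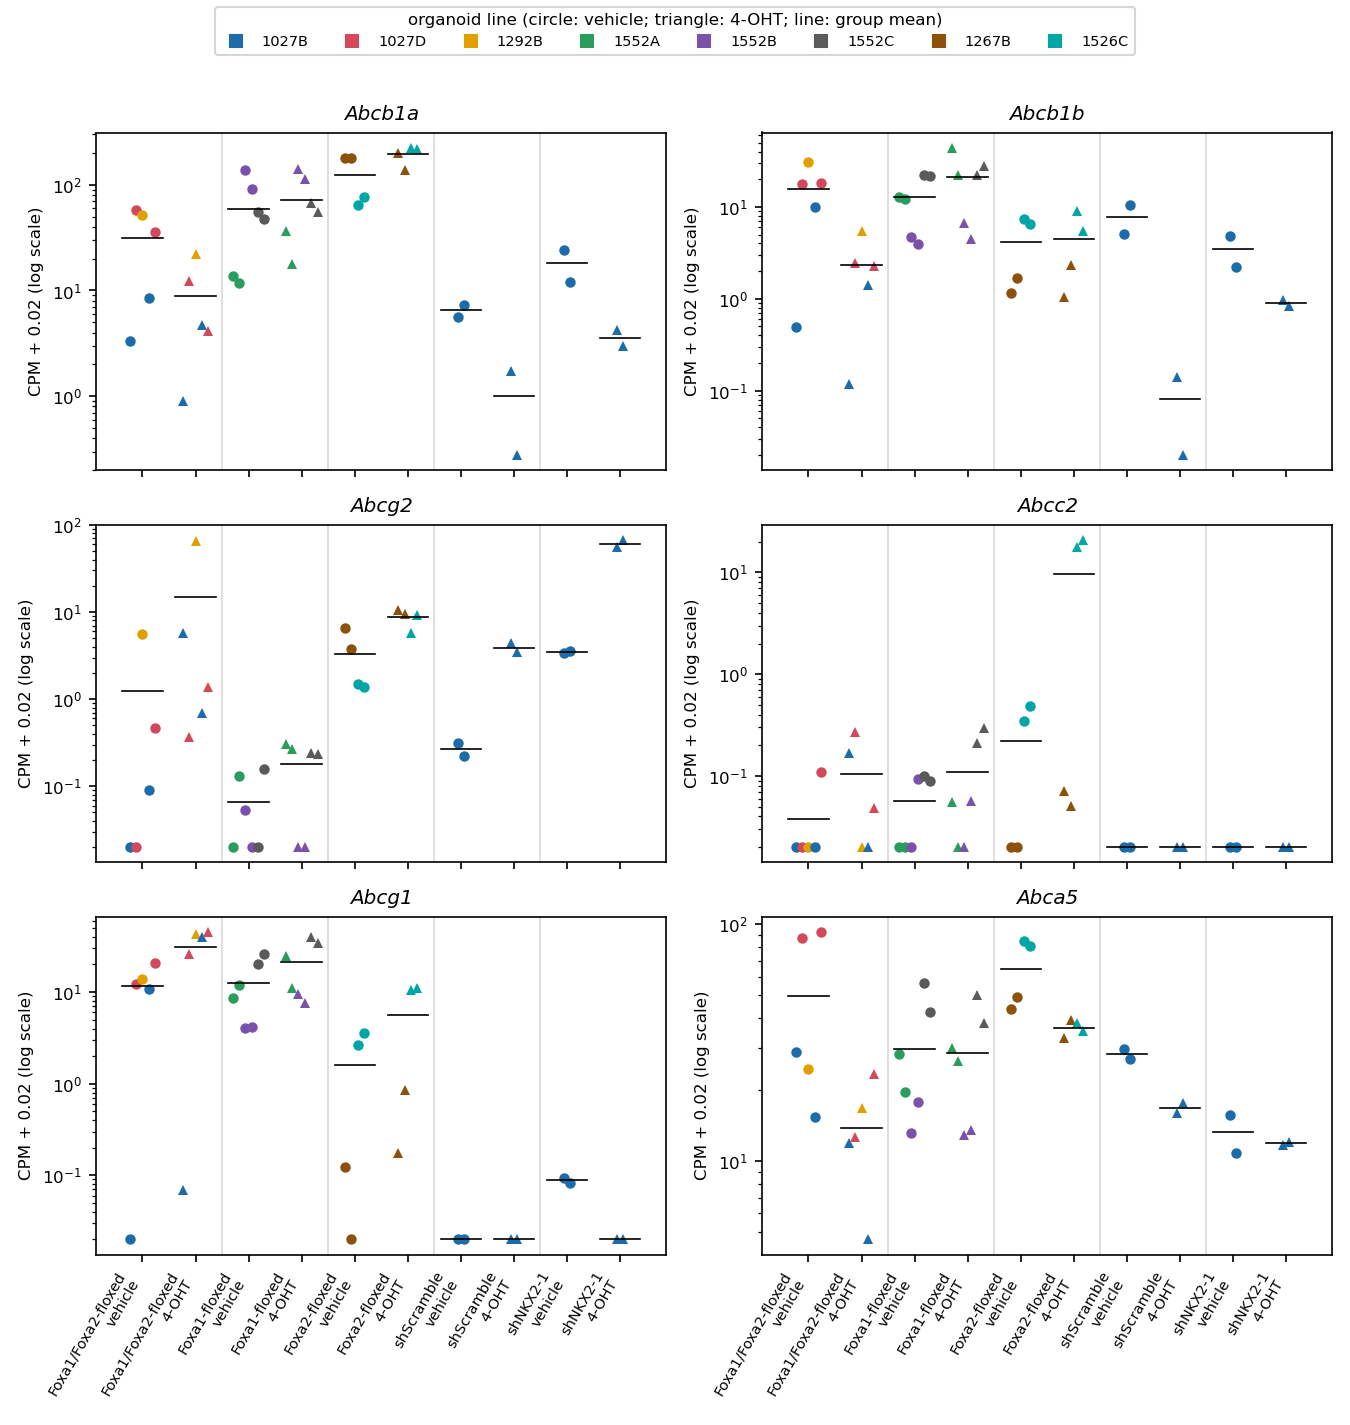
CPM (+ 0.02, log scale) of 6 ABC genes in all 38 libraries by group; colour is the organoid line, circles are vehicle, triangles are 4-OHT and lines are group means. Abcg2 is higher with 4-OHT under both hairpins, and Abcc2 is high in the 2 libraries of line 1526C with 4-OHT.

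Abcg2, the pump first named for breast cancer drug resistance, was higher with 4-OHT under both hairpins, where the P-glycoprotein genes read lower. In single-floxed organoids Abcg2 was fitted higher as well, while the P-glycoprotein genes were not fitted lower. Abcg2 lies at chr6:58584523-58695676 on GRCm38 (plus strand). In line 1027B with shScramble it read 0.295 and 0.203 CPM with vehicle and 4.35 and 3.42 with 4-OHT. With shNKX2-1 it read 3.37 and 3.5 CPM with vehicle and 55.2 and 67.2 with 4-OHT, the highest level of the gene in any hairpin group. The vehicle and 4-OHT libraries did not overlap under either hairpin, as was so for 61.3% (shScramble) and 51% (shNKX2-1) of all genes, and the shScramble 4-OHT and shNKX2-1 vehicle libraries overlapped in range. It rose 15-fold with 4-OHT under shScramble (log2 change 3.91 ± 0.38, adjusted p = 0.0018, edgeR) and 17.8-fold under shNKX2-1 (4.15 ± 0.30, adjusted p = 0.000765).

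Abcg2 was also higher with the Nkx2-1 hairpin. Against shScramble, shNKX2-1 gave a 13.3-fold higher level with vehicle (log2 difference 3.73 ± 0.38, adjusted p = 0.00967, edgeR) and a 15.7-fold higher level with 4-OHT (3.97 ± 0.30, adjusted p = 0.00456). The interaction of hairpin and 4-OHT was 0.24 ± 0.60 on the log2 scale, with an interval from -1.14 to 1.63 (adjusted p = 0.934). The vehicle difference lost its call on leaving out any 1 of the 4 vehicle libraries (adjusted p 0.0551 to 0.182, values 3.48 to 4.03), and the 4-OHT difference on leaving out shScramble 4-OHT replicate 2 (3.80, adjusted p = 0.0664).

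In the lines without a hairpin, Abcg2 started from low or absent levels and varied by tumour. Double-floxed vehicle libraries read 0 and 0.0708 CPM in line 1027B, 0 and 0.452 in line 1027D and 5.56 in line 1292B. With 4-OHT they read 5.68 and 0.671, 0.347 and 1.35, and 65.8 CPM. Every line and prefix had the higher value with 4-OHT, and the single highest library was line 1292B with 4-OHT. The log2 change of 3.61 ± 1.07 did not pass (adjusted p = 0.0975, edgeR), but did with DESeq2. Foxa2-floxed libraries read 6.45 and 3.74 CPM (line 1267B) and 1.48 and 1.36 (line 1526C) with vehicle, against 10.4 and 9.43, and 5.75 and 9.20 with 4-OHT. Here 3 of 4 4-OHT libraries lay above every vehicle library, and the rise of 3.15-fold passed (log2 change 1.66 ± 0.43, adjusted p = 0.0436). That call ended in 16 alternatives, among them leaving out either line 1552B or 1552C, which are not Foxa2-floxed (adjusted p 0.0575 and 0.0689), or line 1526C (0.96, adjusted p = 1). Foxa1-floxed libraries held at most 0.137 CPM with vehicle (median 0.0165) and 0.286 with 4-OHT (median 0.217), a log2 change of 1.57 ± 0.66 (adjusted p = 0.382). The direct differences in effect, 1.92 ± 0.90 against Foxa2-floxed and 2.00 ± 1.27 against Foxa1-floxed lines, did not pass (adjusted p = 0.598 and 0.457).

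Leukocyte markers read higher with 4-OHT beside Abcg2 in some groups and not in others. Their sum over 7 genes ran from 5.49 to 21.1 CPM in double-floxed vehicle and 11.1 to 52.6 in 4-OHT libraries, and from 6.03 to 17.1 and 11.4 to 40.2 in Foxa2-floxed ones. Of 4 tested, Csf1r rose in both genotypes and Itgam in Foxa2-floxed organoids, while Adgre1 was at 0 in all libraries of both. Of all genes, 3.9% (double-floxed) and 3.43% (Foxa2-floxed) passed. Itgam was near the floor, at 0.0516 to 0.210 CPM with vehicle and 0.354 to 0.809 with 4-OHT in Foxa2-floxed libraries. In Foxa1-floxed libraries the sum ran from 5.33 to 46.9 CPM with vehicle (median 16.8) and 5.32 to 35.4 with 4-OHT (median 8.51). In hairpin libraries the sum ran from 6.54 to 12.2 CPM with vehicle and 15.5 to 17.2 with 4-OHT under shScramble. Under shNKX2-1, where Abcg2 rose 17.8-fold, it ran from 7.90 to 14.3 CPM (median 11.1) and up to 10.8 CPM (median 9.88), ranges that overlapped. The part of these markers in the Abcg2 values was not tested in any group. In bulk RNA, a larger share of expressing cells and more RNA per cell cannot be told apart.

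Abcc2, which exports glucuronide and glutathione conjugates across the apical membrane, rose in Foxa2-floxed organoids on the strength of 1 line. It lies at chr19:43782192-43840740 on GRCm38 (plus strand). Line 1526C read 0.328 and 0.467 CPM with vehicle and 17.6 and 20.8 with 4-OHT. Line 1267B read 0 and 0 against 0.0510 and 0.0311. The fitted rise was 46.2-fold (log2 change 5.53 ± 0.53, adjusted p = 2.21e-05, edgeR), and on leaving out line 1526C Abcc2 was too low to test and no member passed in this genotype. Elsewhere Abcc2 read near 0, at most 0.0904 CPM in double-floxed vehicle, 0.248 in double-floxed 4-OHT, 0.0796 in Foxa1-floxed vehicle and 0.275 in Foxa1-floxed 4-OHT libraries, and 0 in all 8 hairpin libraries. The difference in effect between Foxa2-floxed and Foxa1-floxed lines was 4.42 ± 1.10 and did not pass (adjusted p = 1), and against double-floxed lines it was -3.74 ± 1.54 as double minus Foxa2 (adjusted p = 0.545).

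The RefSeq promoter stretches of these induced pumps are shown up to their annotated first exon, since both genes went from low to high counts in single lines.
Abcg2, chr6:58584283-58584522, plus strand: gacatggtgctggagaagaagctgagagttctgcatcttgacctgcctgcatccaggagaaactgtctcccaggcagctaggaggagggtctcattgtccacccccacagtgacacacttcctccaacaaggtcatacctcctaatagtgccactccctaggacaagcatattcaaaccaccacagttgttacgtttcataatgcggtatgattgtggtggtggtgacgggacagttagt
Abcc2, chr19:43782058-43782191, plus strand: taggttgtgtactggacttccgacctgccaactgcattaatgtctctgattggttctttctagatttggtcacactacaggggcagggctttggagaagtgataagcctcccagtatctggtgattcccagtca
Neither stretch held TGTTTAC or TGTTTGC on either strand, nor CAAGTG, a core bound by NKX2-1, which 11.6% of all windows held. The members with CAAGTG were Abca4, Abca15, Abcc10 and Abcg8. Absence of these letters says nothing about the factors themselves.

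Of 36 members tested in Foxa2-floxed organoids, 4 passed (3 higher, 1 lower), where 3.43% of all 16887 genes passed; DESeq2 called the same 4 (5.85% of genes). Beside Abcc2 and Abcg2 these were the sterol genes Abcg1 and Abca5. Abcg1 (chr17:31057675-31117988, plus strand) read 0.103 and 0 CPM (line 1267B) and 2.62 and 3.59 (line 1526C) with vehicle, against 0.153 and 0.840, and 10.5 and 11 with 4-OHT. Only the line 1526C libraries were well above the floor, and the rise was 4.14-fold (log2 change 2.05 ± 0.41, adjusted p = 0.0108, edgeR). Abca5, which handles lipids in late endosomes and lysosomes (chr11:110269369-110337716, minus strand), read 43.9, 49.3, 85.1 and 80.9 CPM with vehicle and 33, 39.4, 38.4 and 35.4 with 4-OHT. All 4 libraries with 4-OHT lay below all 4 with vehicle, where 2.66% of genes did not overlap, a 1.70-fold fall (log2 change -0.77 ± 0.18, adjusted p = 0.0269). Without line 1526C, Abcg1 gave 3.39 (adjusted p = 0.293) and Abca5 -0.37 (adjusted p = 1). The drug and conjugate pumps tested here (10 of 12) had a median log2 change of 0.28, the sterol and phospholipid genes (13 of 21) one of 0.26, and all genes one of -0.01. On counts summed per line, Abcc2 still passed with edgeR. There Abcg1 (adjusted p = 0.0710), Abca5 (0.233) and Abcg2 (0.245) did not. With Foxa2-floxed libraries fitted alone, Abcc2 again passed, while Abcg1 (0.152), Abca5 (0.103) and Abcg2 (0.0952) did not.

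Within double-floxed organoids, 0 of 30 members tested passed with edgeR, where 3.9% of all genes passed; 8 members had an unadjusted p under 0.05, where 20.3% of genes did, and DESeq2 called 7, where it called 12.4% of genes. With line and prefix together as the block, 8 passed (Abca2, Abca4, Abca5, Abcb1a, Abcb1b, Abcc4, Abcg1 and Abcg2), where 11.7% of genes did. On counts summed per line, 2 passed, Abcb1b and Abcg1, where 3.45% of genes did. Several of these are named after their values were seen. Abca5 read 28.8 and 15.4 CPM in line 1027B, 87.7 and 92.5 in line 1027D and 24.4 in line 1292B with vehicle, against 11.9 and 4.65, 12.5 and 23.3, and 16.7 with 4-OHT (log2 change -1.62 ± 0.39, adjusted p = 0.0557). The value was lower in each line and prefix, as it was in both Foxa2-floxed lines. Abca2, a sterol transporter of endosomes and lysosomes, read 57.9, 60, 77.1, 106 and 72.4 CPM against 188, 111, 88.0, 216 and 126 in replicates 1 to 5 (0.90 ± 0.22, adjusted p = 0.0612). Each 4-OHT value was above the vehicle value of its own line and prefix. The log2 differences of Abcg1 within line and prefix were 1.88, 1.09, 1.10 and 1.62 in 4 of the 5 pairs, while the pair of line 1027B under prefix 17699 had 0 counts with vehicle and 1 with 4-OHT, too few to compare. Abca4, the retinoid flippase of photoreceptors, read 0.580, 1.79, 0.795, 0.495 and 1.67 against 0.930, 2.68, 3.44, 1.56 and 5.15 CPM (1.37 ± 0.34, adjusted p = 0.0583). Abcc4, which exports cyclic nucleotides and prostaglandins, read 130, 137, 183, 211 and 129 against 69.0, 84.3, 99.5, 158 and 89.7 CPM (-0.66 ± 0.23, adjusted p = 0.155). Abcc8, the regulatory subunit of pancreatic potassium channels, had 1, 1, 2, 46 and 14 counts with vehicle and 1, 0, 2, 0 and 0 with 4-OHT. A single vehicle library held 46 of its 64 vehicle counts, and in replicates 1 and 3 the count was the same with both treatments. By role, the 8 drug and conjugate pumps tested had a median log2 change of -0.55 and the 8 sterol and phospholipid genes one of 0.68, against 0.02 over all genes.

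**Figure D4:**
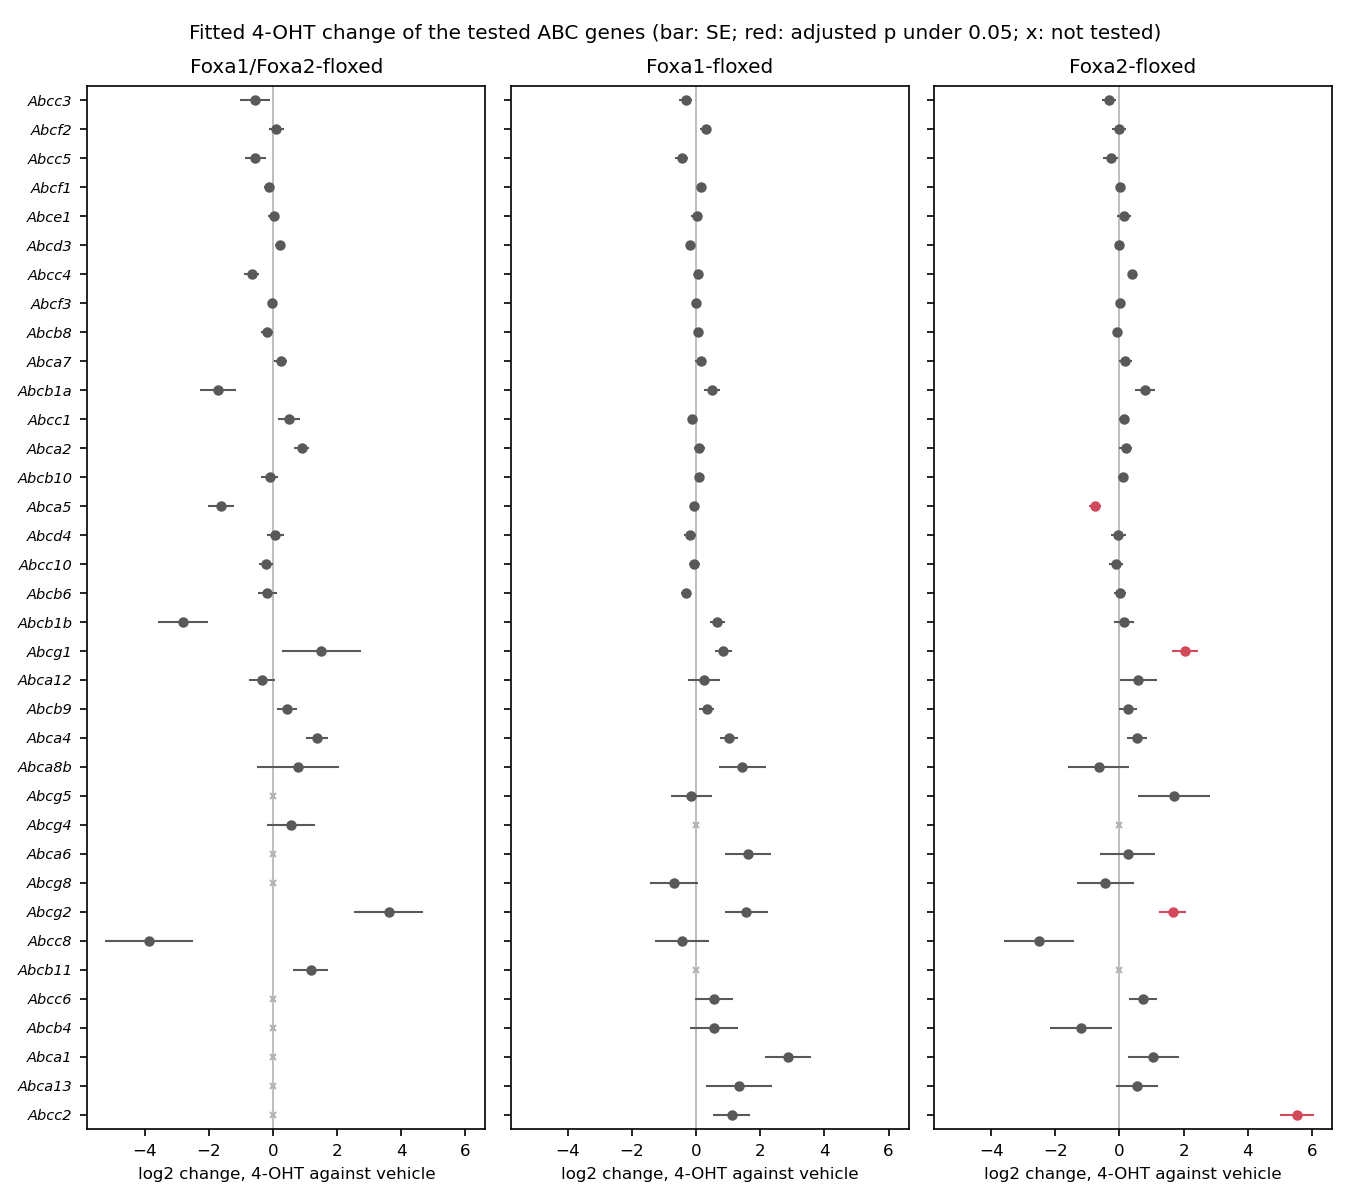
Fitted log2 change with 4-OHT against vehicle (bars are SE) of tested ABC genes in the 3 genotypes; red points passed at an adjusted p under 0.05 and crosses were not tested. The 4 members that passed are all in the Foxa2-floxed panel, and Abcb1a and Abcb1b lie left of 0 only in the double-floxed panel.

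In Foxa1-floxed organoids no member of the family was called. Among 36 members tested, 0 passed with edgeR, where 0.0118% of genes passed; 8 had an unadjusted p under 0.05 (11.4% of genes did) and DESeq2 called 3 (Abca1, Abca4 and Abcg1; 1.46% of genes). The members with the lowest p, named after seeing them, were those 3. Abca1, which loads cholesterol onto apolipoprotein, ran from 0 to 0.239 CPM with vehicle (median 0.0728) and from 0.0369 to 3.33 with 4-OHT (median 0.251), a log2 change of 2.87 ± 0.71 (adjusted p = 0.14). Abca4 had medians of 1.11 and 3.02 CPM (1.03 ± 0.28, adjusted p = 0.16) and Abcg1 had medians of 10.3 and 17.9 CPM (0.85 ± 0.26, adjusted p = 0.241). Abcg1 was higher with 4-OHT in each of the 3 lines, by 0.71, 1.04 and 0.70 on the log2 scale. The median log2 change of members was 0.09, against 0.01 over all genes.

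Some members stayed at low counts. The sterol exporters Abcg5 and Abcg8, which work as a pair, read at most 0.581 and 0.956 CPM in any library. Their log2 changes were -0.15 and -0.69 in Foxa1-floxed (adjusted p = 0.954 and 0.76) and 1.70 and -0.44 in Foxa2-floxed organoids (adjusted p = 0.581 and 0.917). The neighbours Abca8a and Abca8b share 2.11 and 2.16% of their 50-base windows. Abca8a was tested in no comparison, and Abca8b gave 0.79, 1.44 and -0.64 in the double-floxed, Foxa1-floxed and Foxa2-floxed organoids (adjusted p = 0.804, 0.471 and 0.869). Of the 49 members, 9 were tested in no fit and 25 in every fit, so counts of tested members leave out those that were low everywhere.

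The organelle and soluble members gave no call for 4-OHT in the 3 genotypes. The 4 mitochondrial, 2 lysosomal, 2 tested peroxisomal and 4 soluble genes gave 0 calls there with edgeR and 0 with DESeq2. Of all genes, edgeR called 3.9% (double-floxed), 0.0118% (Foxa1-floxed) and 3.43% (Foxa2-floxed). DESeq2 called 12.4, 1.46 and 5.85% in the same order. With so few genes, 0 calls is near those shares in most of these comparisons. Their median log2 changes in double-floxed organoids were -0.13 (mitochondrial), 0.26 (lysosomal), -0.07 (peroxisomal) and 0.01 (soluble). No member of these lists had an unadjusted p under 0.05 in double-floxed or Foxa2-floxed organoids, where 20.3 and 14.2% of all genes did. In Foxa1-floxed organoids 1 did, the peroxisomal Abcd3 at -0.18 ± 0.08 (adjusted p = 0.397, edgeR), where 11.4% of genes did.

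Library shNKX2-1 4-OHT replicate 2, with its high mitochondrial share, departed from replicate 1 in several members. The mitochondrial member Abcb8 read 11 CPM there against 39.5 in replicate 1. Abca7 read 29.0 against 84.9, Abca2 91.2 against 248 and Abcc10 6.87 against 22.5 CPM. Among 25 members tested, 1 passed for 4-OHT under shNKX2-1 with both libraries (Abcg2, where 6.35% of genes passed). Without replicate 1, so resting on replicate 2, 12 passed, where 45.6% of genes did. Without replicate 2 it was 2, Abcg2 and Abcc3. The part of the mitochondrial share in these values was not tested.

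For the other hairpin comparisons the counts were small. With 4-OHT under shScramble, 2 of 25 members passed (Abcg2 and Abcb1b), where 4.33% of genes passed. For shNKX2-1 against shScramble, 1 member passed with vehicle (0.235% of genes) and 1 with 4-OHT (1.58% of genes), Abcg2 in both. In the interaction 0 members and 0% of genes passed with edgeR, 2 members had an unadjusted p under 0.05 (5.41% of genes did), and DESeq2 called 1, Abcb1b (0.615% of genes). Abca5 read 29.6 and 26.9 CPM with shScramble and 15.7 and 10.8 with shNKX2-1 in vehicle libraries, which did not overlap, as was so for 43.9% of all genes (log2 difference -1.09 ± 0.27, adjusted p = 0.21). Abcc8 had 25 counts with vehicle and 1 with 4-OHT under shScramble, a ratio of 25.0 (4.10 to 1028), and 18 and 4 against 0 and 0 under shNKX2-1, where 1 vehicle library held most of the counts. Abcb9, a lysosomal peptide transporter, read 4.07 and 6.15 CPM against 1.96 and 1.61 under shScramble (-1.51 ± 0.71, adjusted p = 0.368).

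Other genes of drug, bile acid and sterol handling were read from lists. Among the nuclear and xenobiotic receptors, 1 of 11 tested rose and 1 fell in double-floxed organoids, where 3.9% of all genes passed. The bile acid receptor Nr1h4 rose (log2 change 4.69 ± 0.96, adjusted p = 0.0346, edgeR), reading 0 to 2.28 CPM with vehicle and 0.230 to 19.1 with 4-OHT. The aryl hydrocarbon receptor Ahr fell (-1.72 ± 0.37, adjusted p = 0.0405), from 72.1 to 271 CPM with vehicle to between 29.0 and 39.1. Nr1h4 was also the 1 receptor of 12 that passed in Foxa2-floxed organoids (3.82 ± 0.67, adjusted p = 0.00488), where 3.43% of all genes passed. Under both hairpins 4-OHT gave 1 higher and 1 lower of 11, where 4.33% (shScramble) and 6.35% (shNKX2-1) of all genes passed. These were Nfe2l2 (1.38 and 1.32), the oxidative stress factor, and Nr1i2 (-4.35 and -5.70), the pregnane X receptor. Nr1i2 was near the floor under shScramble, at 1.18 and 0.405 CPM with vehicle against 0 and 0.0645 with 4-OHT. Under shNKX2-1 it read 13.9 and 10.1 CPM against 0.203 and 0.245.

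Glutathione genes, which make or use the conjugates that C-class pumps export, gave 2 higher and 1 lower of 16 in double-floxed organoids, where 3.9% of all genes passed. The transferase Gsta2 rose from between 2.44 and 6.58 CPM to between 22.9 and 116 (3.64 ± 0.35, adjusted p = 0.00244, edgeR), Gstt1 rose by 2.15 and the cystine carrier Slc7a11 fell by 1.52. In Foxa2-floxed organoids 2 of 16 rose (Gsta2 by 1.84, Gstm2 by 1.40), in Foxa1-floxed 0, under shScramble 3 and under shNKX2-1 6. The shares of all genes that passed were 3.43, 0.0118, 4.33 and 6.35% in the same order. The 4-OHT effect on Gsta2 differed between double-floxed and Foxa1-floxed lines (3.37 ± 0.44, adjusted p = 0.0124).

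Solute carriers of bile acids and organic ions gave 3 higher of 10 tested in Foxa2-floxed organoids, where 3.43% of all genes passed. Among them were Slc51a, a subunit of the basolateral bile acid exporter (3.31 ± 0.56, adjusted p = 0.0036, edgeR) and Slc10a2, the apical bile acid uptake carrier (3.25 ± 0.57, adjusted p = 0.00515). Slc10a2 read 13, 5.51, 1.48 and 2.12 CPM with vehicle and 28.8, 37.9, 59.4 and 38.8 with 4-OHT, groups that did not overlap, as was so for 2.66% of genes. Slc51a, like Abcc2, was high in line 1526C, at 12.3 and 15.4 CPM with 4-OHT against 1.31 and 1.54 with vehicle. None of the 5 solute carriers of this list tested passed in double-floxed organoids with edgeR, where 3.9% of all genes passed. Of the same 5, 0 had an unadjusted p under 0.05, where 20.3% of genes did. The lists of sterol efflux partners, peroxisome genes, ribosome recycling genes and the ABC proteins with other symbols (Cftr, Tap1 and Tap2) gave 0 calls with edgeR in all 3 genotypes. Of all genes, 3.9% (double-floxed), 0.0118% (Foxa1-floxed) and 3.43% (Foxa2-floxed) passed. In double-floxed organoids, 4 of 10, 1 of 11, 0 of 8 and 1 of 3 tested had an unadjusted p under 0.05, where 20.3% of all genes did.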

How the data were processed

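Members and gene lists were chosen with earlier results of these data known. Deposited values are unnormalised counts by Ensembl gene, in 3 tables; per the labels, libraries were directional. The submitters' processing notes name STAR 2.7.6a, featureCounts 1.5.1, DESeq2 and GRCm38. The strand setting and the handling of multi-mapped reads were not stated in these sources. Exons of Abcb6 (55.2%), Abcb10 (10.3%) and Abcb1a (10.1%) overlap other genes. Symbols and exon lengths came from GENCODE. Some family genes and 1 allele that every line carries are not reported here.

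Groups came from genotype, treatment and hairpin. Genes were filtered (filterByExpr, minimum count 10), TMM-scaled within each table and tested with the quasi-likelihood test of edgeR 4.0.16 (R 4.3.3, limma 3.58.1), with organoid line as block, at adjusted p under 0.05; the fits were tested on simulated data. Differences between genotypes used counts summed per line. Alternatives included DESeq2 1.42.0. Vehicle and 4-OHT libraries of a line deviated together (r 0.73 to 0.897), which pairs them. With 2 lines, centring gives both lines the same r, so the Foxa2-floxed lines give 1 value. CPM and RPKM are comparable within a table, and levels across tables rest on separate scaling. Every replicate pair differed beyond sampling noise. Log2 CPM used a prior count of 2, floors 3 counts and intervals 95%. Intervals of count ratios cover counting error only. Those of fitted log2 changes and differences come from the edgeR fit and its spread between libraries or summed lines. Statistics are given for Abcg2, Abcc2, called members, members with a log2 change of at least 1 whose libraries do not overlap, and the pairs Abcb1a and Abcb1b, Abca8a and Abca8b, Abcg5 and Abcg8. Of other lists, up to 2 called genes per direction are named.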

Additional observations from a re-analysis of the deposited data

Results flagged for a closer look

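Of 36 groups checked for a library far from the rest, 3 had one. The limit is set for about 1 in 20 by chance among like replicates. That rate does not carry over here, since groups mix lines and hold values near 0. Abcg2 stood far above the other double-floxed libraries in line 1292B both with vehicle (5.56 CPM, others 0 to 0.452) and with 4-OHT (65.8 CPM, others 0.347 to 5.68). Line 1292B was sampled once per treatment. Abcc2 read 0.0904 CPM in double-floxed vehicle replicate 5 (line 1027D) and 0 in the others, a difference of a few counts.

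The 4-OHT effect on Abcb1b differed between genotypes by a direct test. The log2 difference was -3.05 for double-floxed minus Foxa2-floxed lines and -3.50 for double-floxed minus Foxa1-floxed lines. Both comparisons use the same double-floxed lines.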

How the results depend on the processing

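The limits are few lines (2 or 3 per genotype, 1 for the hairpins), 1 line behind most Foxa2-floxed calls, and paralogs. RLE scaling kept the count of called members in every comparison, and no scaling moved the median of all genes by more than 0.1. Depth limits members near 0 counts. For single genes, 933 alternative values kept direction and call, 41 lost a call, 53 gained one and 37 turned sign. Causes were not tested, except that fewer libraries or genes enter some fits.

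Called members with DESeq2 were 7 (double-floxed), 3 (Foxa1-floxed), 3 and 5 (double-floxed minus Foxa2-floxed and minus Foxa1-floxed), 6 (shNKX2-1 4-OHT), 2 and 3 (hairpins compared with vehicle and with 4-OHT) and 1 (interaction). With no filter on low counts they were 8, 7, 7 (Foxa2-floxed), 2, 2, 6 (shScramble 4-OHT), 7, 2, 4 and 1. With no replicate block they were 0 in the Foxa2-floxed and 0 in the double-floxed organoids, and with the replicate block of line and title prefix 8 in double-floxed ones. Summing counts per line gave 2 (double-floxed) and 1 (Foxa2-floxed), and fitting Foxa2-floxed alone 1. Leaving out 1 library or line gave 0 to 6 (Foxa2-floxed), 0 to 1 (double-floxed), 1 to 2 and 0 to 1 (differences from Foxa1-floxed and Foxa2-floxed), 1 to 5 (shScramble), 1 to 12 (shNKX2-1), 0 to 1 and 0 to 12 (hairpins compared with vehicle and 4-OHT) and 0 to 10 (interaction). The values of 12 and 10 are those without shNKX2-1 4-OHT replicate 1.

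Sign turned for Abcg5 with no replicate block in Foxa1-floxed organoids (0.054) and with DESeq2 for double-floxed minus Foxa1-floxed (0.40). The other sign changes came from leaving out 1 library or line, with these log2 ranges. In double-floxed organoids Abca8b gave -0.12 to 1.69. In Foxa1-floxed organoids Abcg5 gave -0.48 to 0.17. In Foxa2-floxed organoids Abca8b gave -3.77 to 1.46, Abcb1a -0.074 to 1.65, Abcb1b -0.10 to 0.32, Abcg5 -2.60 to 2.34 and Abcg8 -3.77 to 1.23. For Foxa2-floxed minus Foxa1-floxed, Abca8b gave -5.20 to 0.035, Abcb1a -0.64 to 1.18, Abcg2 -0.63 to 0.82, Abcg5 -3.06 to 2.71 and Abcg8 -3.17 to 2.06. For double-floxed minus Foxa1-floxed, Abca8b gave -4.42 to 0.55, Abcc2 -0.071 to 3.23, Abcg5 -1.59 to 1.21 and Abcg8 -2.04 to 0.33. For double-floxed minus Foxa2-floxed, Abca8b gave -2.31 to 4.60, Abcg5 -3.61 to 2.06 and Abcg8 -2.90 to 2.32. In the interaction, Abcb1a gave -0.44 to 2.25 and Abcg2 -0.069 to 0.48. None of the results that turned sign had passed the test. Without the block, Abcg1, Abca5 and Abcg2 gave 1.82, -0.82 and 1.42 in Foxa2-floxed organoids (adjusted p = 1 each), and Abcc2 was not tested.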
